A study of Mus musculus with 11 samples.

Results

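The CLP-only intervals were stretches of chromatin that were accessible in all 3 libraries of common lymphoid progenitors (CLP) and in none of the 6 libraries of 3 related cell types. Peaks of 9 ATAC-seq libraries were merged where they overlapped by at least 1 bp, which gave 71400 intervals, and an interval was kept when a peak was called there in each CLP library and in none of the others. This rule left 2774 intervals, 3.89% of all intervals and 15.2% of the 18209 intervals open in all 3 CLP libraries. ATAC-seq uses a transposase that cuts and tags accessible DNA, and it was applied here to 3 CLP and 2 ILCP libraries from bone marrow and to 2 NKT and 2 CD4SP libraries from thymus, all labelled C57BL/6. The mice were between 4 and 8 weeks old. CLP were lineage-negative, IL-7Rα+ bone marrow cells with intermediate cKit and Sca-1 and high Flt3. ILCP, the precursors of innate lymphoid cells, were sorted as Lin-IL-7Rα+α4β7+ cells that carried eGFP. The strain with eGFP in the study's methods is the Zbtb16-IRESGFPcre reporter, on a B6(SJL) background, and the labels do not name it. NKT and CD4SP were natural killer T and CD4 single positive thymocytes. The study set ILCP against CLP, and NKT against CD4SP, to find elements that control Zbtb16, the gene of the transcription factor PLZF. The series' library of Runx1-bound chromatin, with its control, was not analysed here.

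CLP are bone marrow progenitors that give rise to B cells, T cells, innate lymphoid cells and some dendritic cells, and that have lost most myeloid potential. Their chromatin is shaped by factors such as PU.1, an ETS factor shared with myeloid cells that can bind DNA alone or together with the interferon regulatory factors IRF4 and IRF8 at a joined ETS-IRF element, and by E2A, Ikaros, Runx1 and, at the start of B cell commitment, EBF1. Accessible sites far from genes are often enhancers, and many that are open in progenitors close as cells enter another lineage.

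Sequences of 9 CLP-only intervals, chosen by a rule from the listed genes and from the strongest peaks, are shown first because the motif results refer back to them. Each is 200 bp of the plus strand of mm10. Capitals mark GAGGAAG, the core bound by PU.1, or the ETS-IRF composite, in which GAAA follows GGAA after 2 bases of any kind, or the E-box CAGCTG, on either strand. All but that at Rag1 are the centre of the interval. The Rag1 sequence was taken from the same interval just upstream of the annotated exons. The Etv6 sequence (chr6:134020881-134021080) lay upstream of the gene, at -14.72 kb from its start, and held both the composite and an E-box. The Bach2 sequence (chr4:32358601-32358800, intron) held the composite, and the Siglech (chr7:55765405-55765604, upstream) and Ebf1 (chr11:44682150-44682349, intron) sequences held the PU.1 core, which occurs at 2 places at Siglech. The Rag1 sequence (chr2:101649533-101649732) held an E-box, as did an intergenic sequence nearest to Oprm1 (chr10:6685957-6686156). The sequences at Mecom (chr3:30413815-30414014, intron), nearest to Slc4a7 (chr14:14640036-14640235) and nearest to Scgb2b26 (chr7:33900516-33900715) held none of the marked words. 
Etv6: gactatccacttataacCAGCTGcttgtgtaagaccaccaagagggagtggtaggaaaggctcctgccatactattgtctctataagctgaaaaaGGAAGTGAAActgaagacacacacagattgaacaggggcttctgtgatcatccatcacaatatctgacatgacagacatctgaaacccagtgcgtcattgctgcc
Bach2: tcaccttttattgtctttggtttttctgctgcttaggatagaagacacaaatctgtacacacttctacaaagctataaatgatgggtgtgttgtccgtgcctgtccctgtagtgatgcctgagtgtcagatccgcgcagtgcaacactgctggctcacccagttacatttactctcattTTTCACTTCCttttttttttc
Siglech: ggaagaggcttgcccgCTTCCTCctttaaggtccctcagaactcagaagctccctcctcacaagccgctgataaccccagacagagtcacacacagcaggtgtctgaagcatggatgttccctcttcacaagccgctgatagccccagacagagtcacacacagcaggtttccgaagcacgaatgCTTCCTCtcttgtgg
Ebf1: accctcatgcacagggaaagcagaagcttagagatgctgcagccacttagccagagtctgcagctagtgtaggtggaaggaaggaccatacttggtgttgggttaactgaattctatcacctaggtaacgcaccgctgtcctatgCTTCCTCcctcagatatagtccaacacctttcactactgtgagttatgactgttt
Rag1: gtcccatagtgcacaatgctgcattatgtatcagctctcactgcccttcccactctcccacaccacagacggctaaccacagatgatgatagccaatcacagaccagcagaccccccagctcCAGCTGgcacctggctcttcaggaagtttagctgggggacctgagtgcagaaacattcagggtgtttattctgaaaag
Oprm1: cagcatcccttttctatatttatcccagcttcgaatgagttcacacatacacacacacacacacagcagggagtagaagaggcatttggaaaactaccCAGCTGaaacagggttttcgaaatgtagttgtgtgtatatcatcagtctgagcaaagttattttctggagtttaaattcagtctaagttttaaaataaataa
Mecom: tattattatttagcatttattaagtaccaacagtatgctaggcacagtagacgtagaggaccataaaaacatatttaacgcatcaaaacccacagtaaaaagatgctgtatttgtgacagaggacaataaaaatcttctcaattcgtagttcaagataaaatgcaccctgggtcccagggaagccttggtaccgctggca
Slc4a7: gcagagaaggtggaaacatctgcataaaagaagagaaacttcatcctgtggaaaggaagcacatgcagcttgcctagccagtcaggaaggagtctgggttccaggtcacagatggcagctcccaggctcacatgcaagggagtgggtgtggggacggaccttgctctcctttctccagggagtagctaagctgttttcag
Scgb2b26: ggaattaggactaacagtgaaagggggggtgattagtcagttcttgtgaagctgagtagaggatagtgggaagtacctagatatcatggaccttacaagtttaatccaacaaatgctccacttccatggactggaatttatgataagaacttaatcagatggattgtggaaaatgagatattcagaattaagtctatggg

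Introns of Ikzf1 and Bcl11a are added as further examples, which were picked after their motifs had been seen. The Ikzf1 sequence (chr11:11763331-11763530) held the PU.1 core and the Bcl11a sequence (chr11:24141960-24142159) the composite. Ikzf1 encodes Ikaros, a zinc finger factor needed for lymphoid development, and Bcl11a a zinc finger factor needed for B cell and dendritic cell development.
Ikzf1: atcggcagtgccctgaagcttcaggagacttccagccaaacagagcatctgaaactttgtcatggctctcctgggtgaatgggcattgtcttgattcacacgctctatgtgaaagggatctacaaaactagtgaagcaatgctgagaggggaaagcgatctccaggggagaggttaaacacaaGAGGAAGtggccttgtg
Bcl11a: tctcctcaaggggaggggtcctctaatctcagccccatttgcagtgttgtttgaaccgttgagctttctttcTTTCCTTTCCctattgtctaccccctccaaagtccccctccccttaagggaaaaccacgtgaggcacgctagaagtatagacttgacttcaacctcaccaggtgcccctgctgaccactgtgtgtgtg

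The number of members was set largely by CLP replicate 1. This library held 19343 peaks, against 41535 and 40136 in CLP replicates 2 and 3 and between 25771 and 38793 in the other 6. The methods state sequencing depth as 1 range that covers every library, and each library's own read number is not known, so the number of peaks is the nearest measure of depth, and a missing peak says only that none was called. Among intervals without a peak in the other cell types, 7284 were open in CLP replicates 2 and 3 but not in replicate 1, and 10059 intervals would have been members had replicate 1 been left out. Replicates 2 and 3 were also the most alike of all replicate pairs. Their score percentiles over shared intervals had a Spearman correlation of 0.945, against 0.795 to 0.873 in the other 5 pairs, and 115 of their peaks (0.287% of the shorter list) had the same start and end, against 0 to 5 in the other pairs. The paper's methods describe biological replicates, and with peak lists alone it was not tested whether these libraries differed by more than sampling noise.

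Each library was left out of the choice in turn, and the intervals chosen from the other 8 were looked up in it. When intervals were chosen without CLP replicate 2, 99.2% of 2796 had a peak in it, and without CLP replicate 3, 98.4% of 2820 had one. The corresponding shares among intervals open in the kept CLP libraries, whatever the other cell types showed, were 99.6% and 99.3%, so these high shares are not particular to the members. Chosen without CLP replicate 1, 27.6% of 10058 intervals had a peak there, below the 50.8% of all 35856 intervals open in replicates 2 and 3. When each library was cut to the same number of its best peaks, the share of chosen intervals with a peak in replicate 1 was 66.4%. The matching share of all intervals open in replicates 2 and 3 was not computed at equal peak numbers, so 66.4% cannot be set against 50.8%. Libraries of the other cell types were left out in the same way. ILCP replicates 1 and 2 had a peak in 9.11% and 8.78% of the intervals chosen without them, NKT replicates 1 and 2 in 1.49% and 1.60%, and CD4SP replicates 1 and 2 in 2.496% and 2.22%. Of all intervals, 34.6% to 52.8% had a peak in each of these 6 libraries, and of those open in all 3 CLP libraries, 65.98% to 72.0%. Unlike these backgrounds, the choice also asked for no peak in the other library of the same type. ILCP, NKT and CD4SP replicates shared 72.3% to 74.7% of the intervals open in either, so low shares were in large part set by the choice. Of the 766 intervals open in all 3 CLP libraries and in exactly 1 other library, 278 were open in ILCP replicate 1, 267 in ILCP replicate 2, and 42 to 71 in each thymic library.

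Members ranked below the other intervals of the library in CLP replicate 1 and above them in replicates 2 and 3, and in all 3 libraries below the intervals that were also open in another cell type. Scores from the peak caller were turned into percentiles within each library, because scores of different libraries are not on one scale. The median percentile of the members was 29.8 in CLP replicate 1 (quartiles 14.4 and 48.0), 61.5 in replicate 2 (47.5 and 73.6) and 59.7 in replicate 3 (45.6 and 72.2). The other intervals of these libraries had medians of 55.8, 48.8 and 49.0. Intervals open in all 3 CLP libraries and also in another cell type had medians of 56.7, 79.4 and 78.7. These values come from the libraries that chose the members and are a description. Only 3.75% of the members were at or above percentile 75 of replicate 1, against 22.3% and 20.3% in replicates 2 and 3. Within the members, score percentiles had a Spearman correlation of 0.588 between replicates 1 and 2, 0.594 between 1 and 3 and 0.928 between 2 and 3, given as a description over 2774 intervals of the same libraries.

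**Figure D1:**
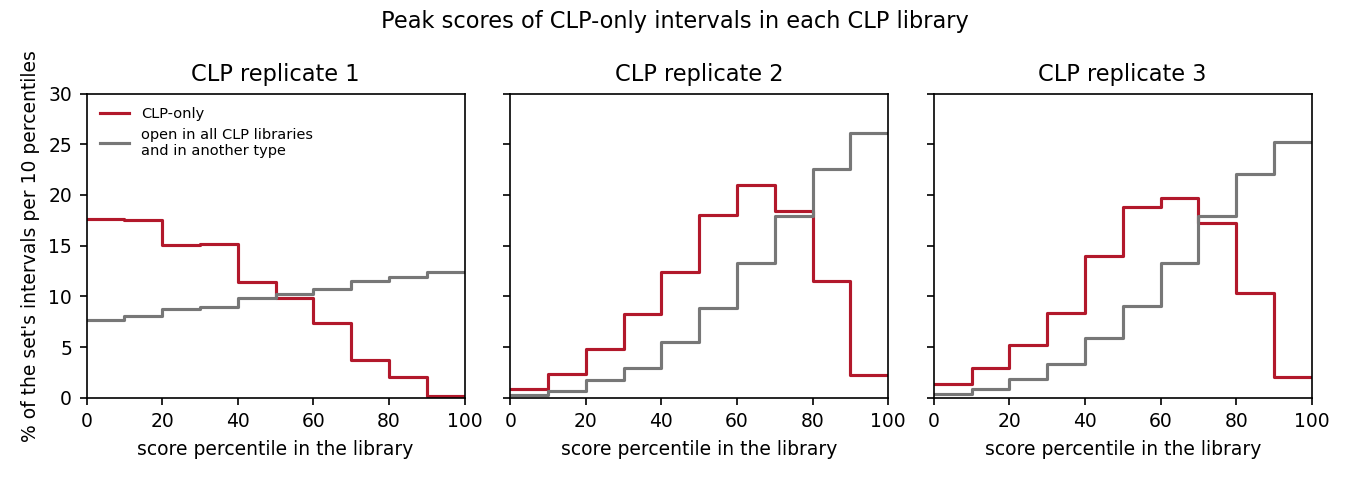
Share of intervals (y axis, percent per 10 percentiles) by the score percentile of their strongest peak in each CLP library (x axis), for the 2774 CLP-only intervals (red) and the 15435 intervals open in all CLP libraries and in another cell type (grey). The red curve is highest at low percentiles in replicate 1 and between about 50 and 80 in replicates 2 and 3.

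The rule is a threshold on peak calling, and members just inside it were marginal peaks. The lowest score in every library was close to 120, the lowest value the lists hold. The members with the lowest CLP score were found nearest to the start sites of genes that include Dyrk1b (120.01) and Il1rl2 (120.04). Just outside the rule were intervals open in all 3 CLP libraries whose only other peak was as weak, nearest to Robo3 (120.03 in ILCP replicate 2), Atp10a (120.05 in ILCP replicate 1) and Retreg1 (120.27 in NKT replicate 1).

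The members lay mostly far from genes' start sites. Of the 2774, 146 (5.26%, Wilson 95% interval 4.49 to 6.16) overlapped or lay within 1 kb of a start site of a protein-coding transcript, 1251 (45.1%) lay in introns, 1294 (46.6%) between genes and 83 (2.99%) in other exons. Start sites took 20.7% of all intervals, 42.9% of those open in all 3 CLP libraries and 65.3% of those open in all 9 libraries. The intervals open only in ILCP, only in NKT or only in CD4SP had low shares as well, of 3.18%, 3.85% and 3.44%. The share rose to 9.18% without CLP replicate 1. The median distance to a start site was 28067.5 bp (quartiles 9446 and 81487), against 16529 bp over all intervals, and 20.6% of the members were more than 100 kb from any start site, against 14.2% of all intervals. The members had a median width of 1147 bp, against 1015 bp over all intervals and 851 to 878 bp in the other single-type classes. They merge peaks of 3 libraries, and those classes of 2. CLP replicates 2 and 3 also had the widest peaks, with medians of 1035 and 1033 bp, against 813 to 989 bp in the ILCP, NKT and CD4SP libraries. Away from start sites the members differed little in composition, with a median GC content of 47.5% in the central 200 bp and 13.2% of repeat sequence, against 48% and 12.9% in all such intervals.

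The 10 start-site members with the highest mean percentile, picked after the values had been seen, are given as examples. They were at Aplnr, the apelin receptor gene (mean score percentile over the 3 CLP libraries 87.8), Resf1 (83.6), Deptor, an inhibitor of mTOR signalling (81.7), Clec4a3, a C-type lectin receptor gene of myeloid cells (80.6), Cdh5, the gene of VE-cadherin (80.0), Tyrobp, which encodes the adaptor DAP12 (80.0), Slc6a12 (77.7), Mroh2a (76.5), Fbn1, the fibrillin 1 gene (75.9) and Tlr9, the gene of the receptor for CpG DNA (75.7). At Cdh5 the member was 1 of 3 within 21756 bp (chr8:104110385-104132140).

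Of the 18 listed motifs, the PU.1 core had the largest difference in share between the members and all intervals. In the central 200 bp of the 2628 members lying over 1 kb from a start site, GAGGAAG occurred in 732 (27.9%, Wilson 95% interval 26.2 to 29.6), against 16.4% of all 56612 such intervals. The intervals open only in ILCP, only in NKT or only in CD4SP held it in 8.35%, 12.2% and 14.9%. Of the 10401 such intervals open in all 3 CLP libraries, which include the members, 20.7% held it. The ETS-IRF composite occurred in 313 members (11.9%, 10.7 to 13.2), against 3.80% of all intervals and 0.949%, 2.23% and 2.46% of the intervals open only in ILCP, NKT or CD4SP. In the intervals open in all 3 CLP libraries, members among them, the composite was at 5.77%. Both words can share bases, and 97 members (3.69%) held both, against 0.952% of all intervals. The IRF word, which is GAAA repeated after 2 bases of any kind and has no ETS part, was at 5.71% in the members and 4.36% in all intervals. Both strands were searched, and the intervals of shares cover counting error only. These shares describe intervals of the same libraries, so no test was made on them.

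Other factors of the progenitor stage showed smaller differences or none in these words. The E-box CAGCTG, which E2A and HEB proteins bind, was in 21.2% of the members and 14.8% of all intervals. It was also in 20.5% of the intervals open in all CLP and ILCP libraries and in no thymic library. Intervals open in all 3 CLP libraries, which include the members, held it in 18.7%. CACCTG, another E-box, was in 17.2% of the members and 15.9% of all intervals. The EBF palindrome, which is TCCC and GGGA with 2 bases between them, was in 18 members (0.685%) against 0.366% of all intervals. In intervals open in all 3 CLP libraries it was at 0.567%. The Hoxa9 word TGATTNAT was in 2.97% against 2.33%, and the Meis word TGACAG in 19.3% against 18.3%, a difference that turned to -1.15 percentage points with equal peak numbers. The C/EBP word TTGCNNAA, of a factor family of myeloid cells, was in 8.33% against 8.22%, and the plain ETS word CCGGAAG in 1.03% against 1.84%.

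Words of T cell and innate lymphoid factors were rarer or at the level of other intervals. The TCF/LEF word CTTTGA was in 11.4% of the members and 18.9% of all intervals, and reached 32.6%, 28.3% and 23.2% in the intervals open only in ILCP, NKT and CD4SP. The GATA word AGATAA was in 6.96% of the members, 11.2% of all intervals and 21.005% of the ILCP-only intervals. The Runx word TGTGGT was in 29.8% of the members and 28.9% of all intervals, but in 57.5% of the ILCP-only intervals. With equal peak numbers in every library the Runx difference between the members and all intervals turned from 0.856 to -2.59 percentage points. The CTCF word was in 14 members (0.533%) against 3.62% of all intervals, and the Sp/KLF word GGGCGG in 3.16% against 6.46%. The ILCP-only intervals had similar shares of both, 0.672% and 2.97%. With equal peak numbers in every library, the CTCF difference shrank from -3.09 to -1.49 percentage points. The lower shares of TCF/LEF and GATA depended on the window. Over whole intervals, which are wider in the members, the members exceeded all intervals by 0.120 percentage points for TCF/LEF and by 3.52 for GATA.

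**Figure D2:**
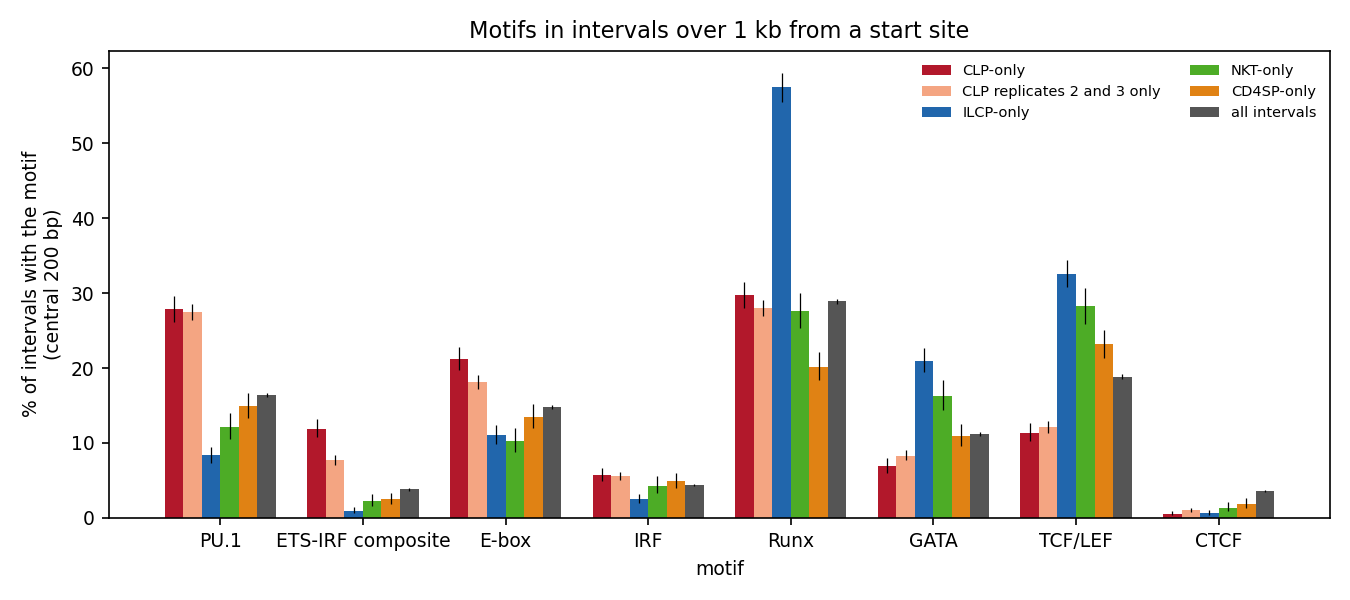
Percent of intervals lying over 1 kb from a start site whose central 200 bp hold each motif (y axis), with Wilson 95% intervals as error bars, for 8 of the 18 motifs (x axis) and 6 sets of intervals. PU.1 reaches 27.9% and the ETS-IRF composite 11.9% in CLP-only intervals, while Runx reaches 57.5% in ILCP-only intervals.

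The PU.1 and composite words sat at the centre of the members. In windows of 50 bp, PU.1 occurred in a mean of 8.92% of the members in the 2 windows nearest the centre and 2.09% in the 4 windows 400 to 500 bp away. The composite went from 0.656% at the edge to 3.81% at the centre, and the E-box CAGCTG from 2.61% to 6.41%. In ILCP-only intervals the composite was at 0.257% in the centre and 0.653% at the edge. The Runx word was also centred in the members (10.1% against 4.12%), though less than in ILCP-only intervals (21.2% against 3.69%). TCF/LEF and GATA were lower at the centre of the members (2.95% and 1.60%) than at the edge (3.92% and 3.23%), while in ILCP-only intervals both were higher at the centre (10.4% and 6.47%) than at the edge (4.07% and 3.68%).

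**Figure D3:**
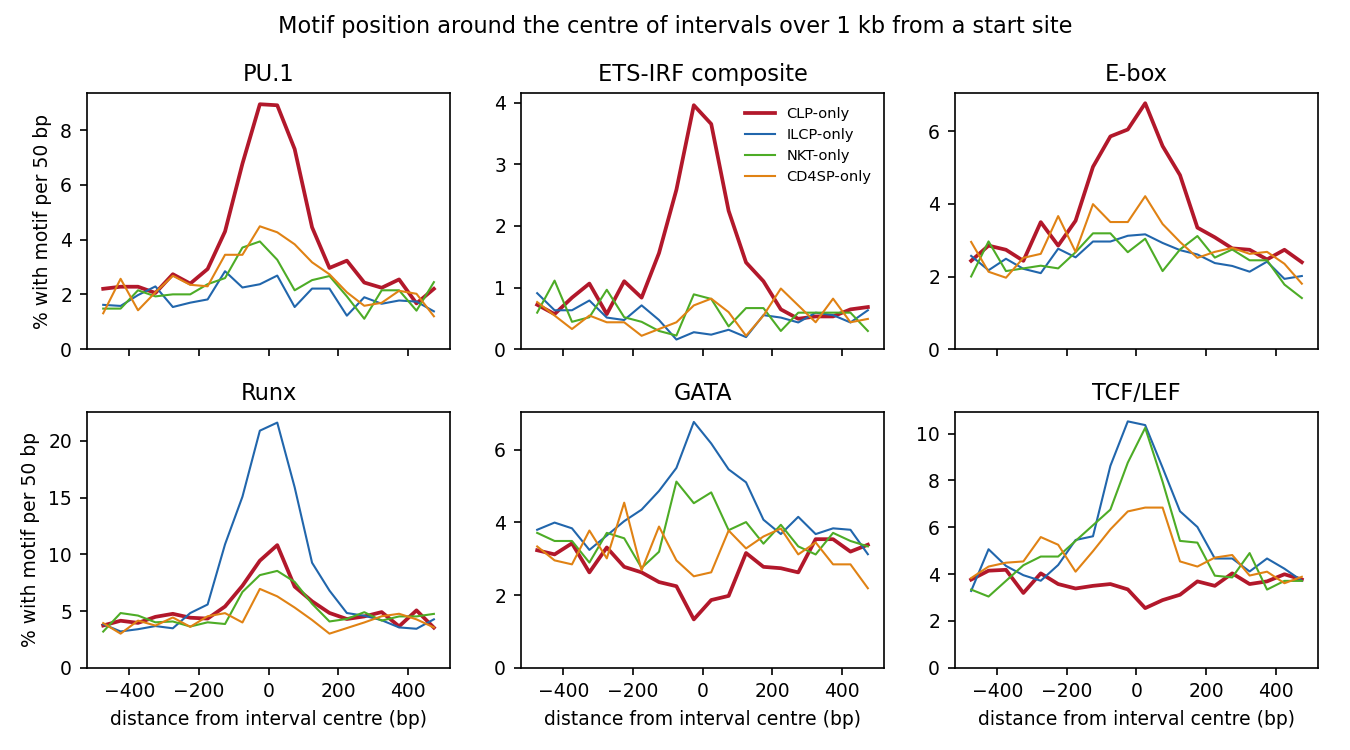
Percent of intervals with a motif in each 50 bp window (y axis) by distance from the interval centre (x axis, bp), for intervals lying over 1 kb from a start site. The CLP-only curve (red) peaks at the centre for PU.1, the ETS-IRF composite, the E-box CAGCTG and Runx, and dips there for GATA.

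The differences for PU.1, the composite, TCF/LEF and GATA kept their direction in each bin of base composition. Those of other words did not all do so. The IRF word was in 6.67% of the members with a GC content below 40%, against 7.49% of all such intervals, and the Hoxa9 word in 2.07% against 2.395% between 45% and 50% GC. In 5 bins of GC content the PU.1 share of the members ran from 20% to 30.8% and was above that of all intervals (10.2% to 18.9%) in each bin. The composite was at 5.83% to 14.4% against 2.13% to 4.89%, again higher in each bin, and TCF/LEF and GATA were lower in each bin. When the members were split in 3 equal parts by mean score percentile, PU.1 was in 31.7% of the weakest, 26.9% of the middle and 24.9% of the strongest part, and the composite in 13.6%, 10.05% and 12.1%. The Hoxa9 word was in 2.05%, 2.85% and 3.995% of these parts, so its higher share came from the middle and strongest parts. The 6508 intervals far from start sites that were open in CLP replicates 2 and 3 alone, none of which is a member, had shares of 27.4% for PU.1, 7.68% for the composite, 12.1% for TCF/LEF and 8.31% for GATA. The 1212 such intervals open in all CLP and ILCP libraries and in no thymic library lay between the members and the ILCP-only intervals, with 18.6% for PU.1, 4.21% for the composite and 45.05% for Runx.

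The PU.1 core was also among the leading words when all 8192 words of 7 bases, each taken with its reverse, were counted without a list of motifs. The 3 words with the largest excess in the members over all intervals were AGAGGAA (27.8% against 14.6%), AAGAGGA (22.1% against 9.97%) and the PU.1 core itself (27.9% against 16.4%). They were followed by GGAAGTG (22.3% against 12.8%), GGGAAGT (14.8% against 6.34%) and GAAGTGA (15.5% against 7.12%). Several of these words overlap each other, so their counts are not independent. The words with the largest deficit were TTCAAAG (3.23% against 7.09%) and CTTTGAT (1.90% against 5.36%), both of the TCF/LEF kind, and AGAGGGC (3.84% against 7.19%), part of the CTCF element. This count was added after the listed motifs had been seen.

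Peaks that were not members made up a larger share near the members in CLP than in the other libraries. The members were chosen on the peak calls of these same libraries, so the shares are a description and no test is drawn from them. Of the peaks outside the members, 10.9% in each of CLP replicates 1, 2 and 3 lay within 20 kb of a member. The shares were 9.88% and 10.1% in ILCP replicates 1 and 2, 8.50% and 8.11% in NKT and 8.71% and 8.25% in CD4SP. All CLP libraries were above all others, and ILCP was above both thymic types. The CLP mean of 10.9% ± 0.0179 (SD, n = 3) was 1.99 percentage points above that of the other 6 libraries, 8.92% ± 0.846 (SD, n = 6), and 0.937 above that of ILCP, 9.98% ± 0.135 (SD, n = 2). Without CLP replicate 1 the difference from the other 6 was 3.86 percentage points over the larger set of members.

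**Figure D4:**
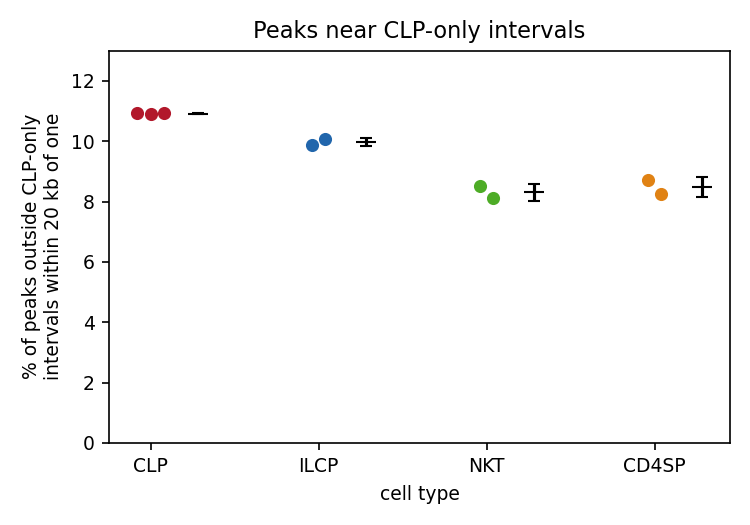
Percent of each library's peaks outside CLP-only intervals that lie within 20 kb of a CLP-only interval (y axis), by cell type (x axis). Points are libraries, and bars beside them show the mean and SD. The 3 CLP libraries sit at 10.9%, above the ILCP, NKT and CD4SP libraries, which lie between 8.11% and 10.1%.

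Most members lay alone. Of the 2774, 436 (15.7%) had another member within 20 kb, against 11.9% of ILCP-only, 13.2% of NKT-only and 16.6% of CD4SP-only intervals for their own classes, which differ in number, and the median gap was 139960 bp. An interval open in all 9 libraries lay within 20 kb of 819 members (29.5%). Runs of at least 3 members, each within 20 kb of the next, numbered 20. The run with the most members had 5 over 34821 bp at Mefv (chr16:3698956-3733776), and runs of 4 lay at Cpeb2 (chr5:43279525-43301684) and Etv6 (chr6:134141041-134187204). Among the 17 runs of 3 were those at Tnip3 (chr6:65584843-65590903), Cybb (chrX:9452129-9471494), which encodes the large subunit of the phagocyte NADPH oxidase, and Siglech (chr7:55743852-55783358), and one nearest to Zeb2 (chr2:45246213-45280789).

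A member lay in the body of a protein-coding gene, extended by 20 kb on each side, at 2164 of 21951 genes (9.86%), and 800 members (28.8%) lay outside all such genes. Most of these genes, 1800, had 1 member, 282 had 2 and 64 had 3. The gene with the most was Etv6, which encodes an ETS-family repressor needed for blood stem cells in the bone marrow. Of its 11 intervals open in all 3 CLP libraries, 8 were members. The strongest of them, at -14.72 kb from the start, had score percentiles of 94.2, 89.2 and 86.6 in CLP replicates 1, 2 and 3. Introns held the other 7, from 23.95 to 184.5 kb downstream of the start, and their mean percentiles ran from 25.2 to 85.8. The 4 that form the run lay between 105.9 and 150.6 kb. CLP replicate 1 had 11 peaks within 30 kb of the gene body, 8 of them in members, CLP replicates 2 and 3 had 26 and 27, and the other 6 libraries had 10 to 14.

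**Figure D5:**
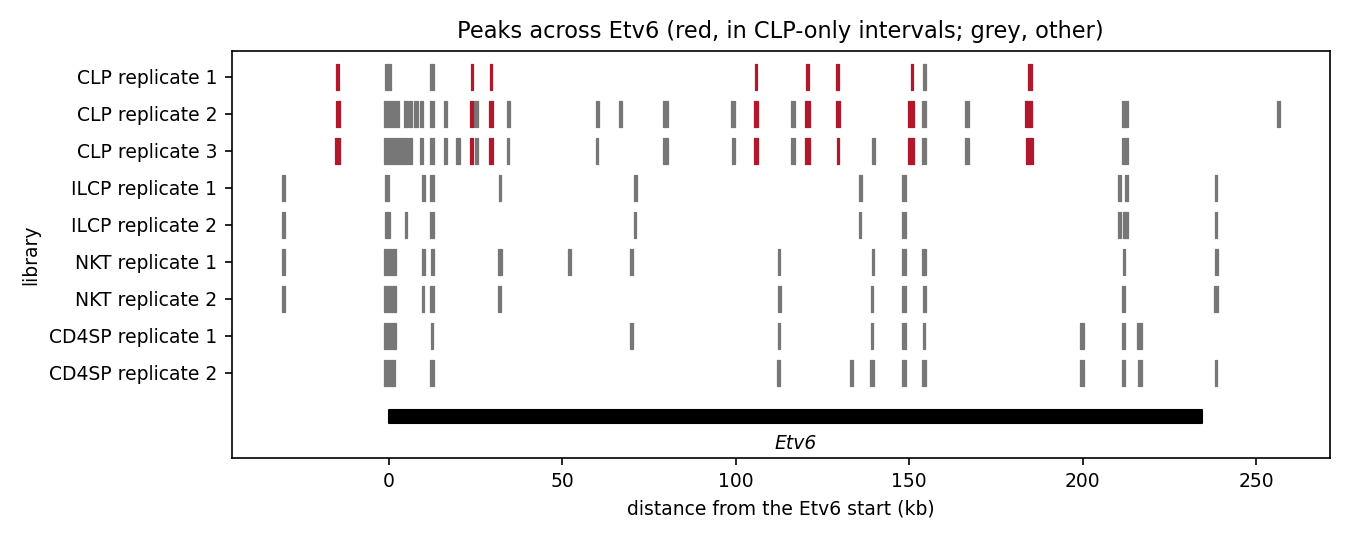
Peaks of each of the 9 libraries (rows) by distance from the start of Etv6 (x axis, kb), with the gene drawn as a black bar. The 8 CLP-only intervals are in red in the 3 CLP rows, at -14.72 kb and between 23.95 and 184.5 kb, and the other 6 rows hold grey peaks only.

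Mefv, which encodes pyrin, an inflammasome sensor of myeloid cells, was the shortest gene with 5 members, which were all 5 of the intervals open in all 3 CLP libraries there. They lay between -14.93 and 18.62 kb from its start and had mean percentiles of 35.6 to 67.1. Only 1 lay in the gene itself, in an intron, and the other 4 were intergenic. Bcr had 5 members of 9 (3 with no extension), the strongest 18.47 kb into the gene (percentiles 71.3, 86.2 and 87.1). Ica1 had 4 of 5, and its strongest member (mean percentile 82.7) held the PU.1 core. Fbxo48 had 4 of 7, all intergenic and 3 of them upstream, so that it had 0 with no extension. Cpeb2, a regulator of translation, had 4 of 6, and 2 of the 4 lay in the gene itself. Rarb, a retinoic acid receptor gene, had 4 of 6, Foxn3 4 of 9, Matn2 4 of 9, Inpp5a 4 of 8 and the chromatin remodeller gene Arid1b 4 of 11. Inpp5a held one of the stronger members of these genes (mean percentile 86.9, 177.5 kb into the gene). Auts2 (5 of 9) and Tenm4 (6 of 11) are long genes of 1106012 and 739848 bp. Gm20388 (6 of 35) and Fgfr2 (5 of 41) have gene models of 4434882 and 2960900 bp in the annotation used, which span other genes, and 4 of the 6 members at Gm20388 lay in introns of Gse1, Zcchc14 or Cbfa2t3.

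Genes known from lymphoid progenitors were examined by lists, and the same was done for other lineages, with the background that 9.86% of all protein-coding genes had a member and that 12.97% of the intervals open in all 3 CLP libraries at any gene were members. Longer genes can hold more members, and median gene length ran from 3819.5 bp in myeloid effectors to 33367 bp in progenitor transcription factors. It was 24261.5 bp in B-lineage priming and 17403 bp over all genes, and the counts were not adjusted for length. The lists and the members were chosen with earlier results of these data known, and their counts are a description. They move with the rule: when 2 of 3 CLP libraries sufficed, 26.9% of all protein-coding genes had a member, with genes extended by 50 kb, 15.5%, and with no extension, so that the middle of the member had to lie in the gene itself, 5.43%. Among 26 genes of B-lineage priming, 8 had a member (14 with 2 of 3 CLP libraries, 6 with no extension), and 10 of 51 CLP intervals (19.6%) were members. Bach2, a repressor that favours B over myeloid fate, had 3 members of 9. They lay 119.9, 134.6 and 336.5 kb downstream of its start, the first with the composite and the others with the PU.1 core. Lyn and Blk, Src-family kinases of the B cell receptor, Syk, the kinase downstream of it, the inhibitory receptor gene Cd22, the octamer factor gene Pou2f2, Bcl11a and Ebf1 had 1 each. The Ebf1 member, 64.93 kb into the gene that directs B cell commitment, was 1 of 4 and had percentiles of 46.3, 55.7 and 43.8. The member at Lyn was stronger, with percentiles of 62.7, 75.4 and 79.5. Il7r, the gene of the receptor used to sort these cells, had 1 CLP interval and no member, and Pax5, the factor that maintains B cell identity, had neither.

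Rag1 and Rag2, which encode the recombinase of antigen receptor genes, shared 1 member (chr2:101648979-101650101) that lay over the Rag1 start and 24.82 kb from the Rag2 start. Its middle lay just outside the Rag1 gene model, so with no extension neither gene had a member. Its percentiles in CLP replicates 1, 2 and 3 were 65.6, 66.6 and 67.8, which are close to each other. Its centre held the Runx word. At Dntt, the gene of terminal transferase, none of the 4 CLP intervals was a member.

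Among 31 genes of progenitor transcription factors, 8 had a member (21 with 2 of 3 CLP libraries, 7 with no extension), and 16 of 86 CLP intervals (18.6%) were members, 8 of them at Etv6. Mecom, which encodes the stem cell factor EVI1, had 2 of 7, the stronger 134.1 kb into the gene (percentiles 66.7, 90.5 and 91.0) with GATA and Meis words. Ikzf1 had 1 of 8, which was among the stronger members (83.2, 87.7 and 88.5). Meis1, a partner of Hox proteins, had 1 of 8 (mean percentile 69.6), with a PU.1 core. Spi1, the gene of PU.1 itself, had 1 of 3 at an internal start site 14.48 kb downstream of the first (percentiles 44.96, 68.3 and 72.8), with the E-box words and no PU.1 core in its centre. Hlf, Zeb2 and Tcf4 had 1 each, and that at Zeb2 was weak (18.5, 27.0 and 16.8).

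Of 28 receptor genes of progenitor and myeloid cells 2 had a member, against 8 (28.6%) with 2 of 3 CLP libraries, 5 (17.9%) with 50 kb and 1 with no extension. By the rule used here, 2 of 46 CLP intervals (4.35%) were members, at the myeloid cytokine receptor genes Csf1r (mean percentile 80.7) and Csf2ra (44.5). Flt3, whose product marks these cells in the sort, had 7 of 12 intervals open in all 3 CLP libraries and no member, and Kit had 1 and none, so each of these was also open in at least 1 library of another cell type.

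Lists of other lineages were looked at in the same way. Before the CLP sort, the study removed cells that stained for lineage markers, among them the myeloid and dendritic markers Gr-1, CD11b and CD11c, the T and NK cell markers TCRβ, CD3ε and NK1.1 and the erythroid marker Ter119. Of 16 myeloid effector genes, 3 had a member (5 with 2 of 3 CLP libraries, but 1, or 6.25%, with no extension), and 3 of 12 CLP intervals (25%) were members, at Tlr4, Tyrobp and Adgre1, with mean percentiles of 60.8, 80.0 and 70.7. The granule genes Mpo, Elane, Prtn3 and Ctsg had none. Of 12 dendritic cell genes, 4 had a member (7 with 2 of 3 CLP libraries, but 1, or 8.33%, with no extension), and 5 of 19 CLP intervals (26.3%) were members. Siglech, a receptor gene of plasmacytoid dendritic cells, had 2 of 5, lying at -2.674 kb from its start (percentiles 77.6, 80.6 and 81.6) and at 14.53 kb (67.0, 83.2 and 73.2), both outside the gene itself. Bst2, Clec9a and Cd83 had 1 each, and that at Clec9a lay over a start site of the neighbouring gene Clec1b. None of the 12 erythroid and megakaryocyte genes had a member, though 13 intervals there were open in all CLP libraries. With 2 of 3 CLP libraries 3 of the 12 had one (25%), and with 50 kb 2 had. The part of other cells in the myeloid and dendritic counts was not tested.

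Genes of the lineages that the other libraries represent were counted last. Of 22 T-lineage genes, 3 had a member (13.6%), and 9 (40.9%) had one with 2 of 3 CLP libraries and 1 with no extension. By the rule used here 3 of 34 CLP intervals (8.82%) were members, at Notch1, which encodes the receptor that starts T cell development, the costimulatory receptor gene Cd28 and Cd5. The Cd5 member lay in an intron of the neighbouring gene Vps37c. Of 16 ILC-lineage genes, 2 had a member (12.5%; 3 of 28 CLP intervals, 10.7%), and 8 (50%) had one with 2 of 3 CLP libraries and 1 with no extension. Il1r1, the receptor for interleukin 1, had 2 members of 3, a weak one at its start (17.3, 48.4 and 31.4) and one 38.05 kb into the gene (67.0, 70.0 and 69.9), and Il18r1 had 1. Zbtb16, the subject of the study, had no interval open in all 3 CLP libraries, and so no member, among its 23 intervals.

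The 10 members with the highest mean percentile were mostly far from any gene start and were not at genes of the lists, with 1 exception. The strongest (chr1:4774363-4776265) overlapped an exon of Mrpl15, a mitochondrial ribosomal protein gene, 9445 bp from the nearest start, with percentiles of 96.5, 98.2 and 98.3. Its score of 3100 in replicates 2 and 3 was tied with other peaks, among them that over the Etv6 start. The next strongest were between genes, 71600 bp from a start site of Oprm1, 61053 bp from one of Slc4a7 and 43305 bp from one of Scgb2b26. Their mean percentiles were 93.2, 92.5 and 91.2. The exception lay 118641 bp from the nearest start site of Bcl11a (chr11:24199311-24201247, percentiles 87.7, 93.3 and 91.9). The gene ends at position 24174123, and the member lay beyond the 20 kb past that end used to assign intervals to it. A member 186290 bp from a start site of Etv1, an ETS factor gene, had a mean percentile of 90.9. Others lay in introns of Lactb2 (91.1), Snx30 (90.9) and Gnat3 (90.8) and 228188 bp from a start site of A430005L14Rik (90.7).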

How the data were processed

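ATAC-seq was performed on sorted cells with 3 CLP, 2 ILCP, 2 NKT and 2 CD4SP libraries. The authors aligned reads to mm10 with bowtie and called peaks per library with MACS. The deposited lists hold a position for each peak with the score of the peak caller, and replicates were not pooled. The MACS version and settings, duplicate removal and any shift of read ends for the transposase are not given in the sources used here, nor are the reads of each single library. The submitters' processing notes name Picard without a role, and HOMER has one in the methods for ChIP-seq tracks, not analysed here. Since deeper libraries can give more and wider peaks, scores were compared as percentiles within a library.

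Samples were grouped by their titles. Positions were converted to count from 1, and intervals were merged and classed with pandas 2.3.3 and numpy 2.4.6 in Python 3.11.15. Genes came from GENCODE M21 and sequences from GRCm38.p6, which is mm10, read with pysam 0.24.0. Motifs were matched as exact words on both strands in the central 200 bp. An exact permutation test of neighbouring peaks was planned, but its p-values are not given, since the members were chosen on peak calls of the same libraries. Confidence intervals are Wilson 95% intervals (scipy 1.17.1). Classes and motifs were recovered in full (100%, with 0% wrong) in simulated data of 20000 intervals and 2000 sequences. Peaks and words were planted there with no missed calls, so this checks the code and not the peak calls of real libraries.

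The members, motifs and gene lists were chosen with earlier results of these data known. Named genes were the 15 with the most members, list genes with at least 2, Flt3, Il7r, Kit, Rag1, Rag2, Dntt, Ebf1 and Zbtb16, and the 10 strongest members. Among the 15, ties were taken from the shortest gene, so not all of the 11 genes with 4 members are named. Of the 10 sequences chosen by rule, 1 that held none of the marked words is not reported here, nor are a few other items. Other list genes with a member, start-site members and runs were named after their values were seen. Alternatives were an equal number of peaks per library, stricter scores, 2 of 3 CLP libraries, larger overlaps, other windows, a replicate block and each library left out.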

Additional observations from a re-analysis of the deposited data

How the results depend on the processing

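The number of members was 2511 with an equal number of peaks per library and 2825 when a peak had to cover at least 50% of an interval. It fell to 1810 with scores of at least 200 and to 1345 with the higher-scoring 50% of peaks, and was 10126 when 2 of 3 CLP libraries sufficed. Leaving out 1 library gave 2817 to 10059 intervals, the highest without CLP replicate 1 and at most 3052 without any other. The start-site share was 7.89% with equal peak numbers (29.8% of all intervals), 9.19% with 2 of 3 CLP libraries, 4.11% within 500 bp and 7.86% within 2000 bp, and 5.32% to 9.18% with 1 library left out.

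With equal peak numbers, the differences between the members and all intervals were 9.38 percentage points for PU.1, 5.67 for the composite, -8.87 for TCF/LEF and -1.49 for CTCF. With 2 of 3 CLP libraries they were 5.06 for the composite, 4.29 for the E-box CAGCTG and -2.70 for CTCF. In the central 400 bp they were 13.3 for PU.1, 10.1 for the composite, 8.37 for the E-box, -9.46 for TCF/LEF and -3.47 for CTCF. Over whole intervals they were 14.5, 12.3 and 9.54 for PU.1, the composite and the E-box and -3.65 for CTCF, and turned to 3.52 for GATA and 0.120 for TCF/LEF, where the wider members hold more sequence. Small differences of other words also changed sign. Runx was at -2.59 with equal peak numbers, -0.276 with 2 of 3 CLP libraries, -0.129 in the central 400 bp and 5.33 over whole intervals. Meis was at -1.15 and C/EBP at -0.0704 with equal peak numbers, CACCTG at -0.384 with 2 of 3 CLP libraries and AP-1 went from -0.102 to 5.11 over whole intervals.

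With equal peak numbers the shares with a peak in the library left out of the choice were 66.4%, 92.3% and 91.1% in CLP replicates 1 to 3, 9.64% and 10.29% in ILCP replicates 1 and 2, 1.68% and 1.06% in NKT and 2.60% and 1.02% in CD4SP. Background shares were not computed at equal peak numbers. For the other cell types, the choice again asked for no peak in the other library of the same type. Genes with a member numbered 5905 with 2 of 3 CLP libraries, 1192 without extension of the gene body and 3402 with 50 kb.

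The excess of neighbouring peaks in CLP over the other 6 libraries kept its sign throughout, from 1.86 to 3.86 percentage points with 1 library left out, the highest without CLP replicate 1. It was 0.838 within 5 kb, 2.91 within 100 kb, 1.48 with scores of at least 200, 1.64 for neighbours over 2 kb away and 2.07 with equal peak numbers. Over ILCP it ran from 0.436, with scores of at least 200, to 1.02. Taking the replicate number as a block cannot change the difference from the other 6 libraries, 1.99 percentage points, and bears only on the permutation test. Libraries of different types that share a number deviated together only in NKT and CD4SP (r = 0.177, and -0.0415 to -0.00323 in the other pairs), so the numbers were not taken as pairs.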
